A study of Mus musculus with 12 samples.

Results

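Neuronal cytoskeleton and transmitter markers were followed across RNA-Seq libraries of NE-4C cells, a line of mouse neural progenitors derived from embryonic day 9 brain that lacks functional p53. The 10 genes were taken by name from the 57010 genes of the deposited count table: Tubb3, Map2, Mapt, Dcx and Stmn2 of the cytoskeleton, Rbfox3 of the nucleus, Gad1, Gad2 and Slc32a1 of GABA neurons and Slc17a6 of glutamate neurons. All 10 passed the filter on low counts that left 16502 genes for testing.

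The 12 libraries came from 3 passages in each of 4 groups. WT NO and KO NO cells were collected untreated, labelled day 0. WT RA and KO RA cells received 1 µM all-trans retinoic acid (RA) for 24 h, then basal medium, and were collected on day 3. KO cells are a Faf2 knockout line grown from a picked colony after 2 guides removed exon 4, so clone and genotype cannot be told apart. RA exposure and the 3 days in culture cannot be told apart either. The p-values measure the spread between passages of a line.

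As background, newborn neurons assemble microtubules that extend axons and dendrites, and the proteins that build or steer these microtubules are among the earliest neuronal markers. TUBB3 is a neuron-enriched beta-tubulin, MAP2 stabilizes microtubules in dendrites, tau (Mapt) binds them in axons, doublecortin (Dcx) bundles them in migrating neurons, and stathmin-2 (Stmn2) promotes their turnover in growth cones. RBFOX3 is the splicing factor known as NeuN. GAD1 and GAD2 make GABA from glutamate, SLC32A1 loads GABA into synaptic vesicles and SLC17A6 loads glutamate. Many neuronal genes are held down in progenitors by the repressor REST, which binds a DNA element called RE1.

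The promoters of Tubb3, Map2 and Gad2 are shown because Tubb3 and Map2 are the members that passed the test and because these 3 members hold the right part of an RE1 element. RefSeq (build GRCm38.p6, not the build of the count table) gave 10 windows for 8 of the 10 members, each running from 250 bases before to 50 after a transcript start. Mapt and Stmn2 had no entry. Windows were taken by gene name and were not matched to the canonical transcripts used below for length. In GRCm39 the canonical Map2 transcript starts at 66360830, inside a gene that starts at 66214327. The windows are chr8:123411303-123411602 for Tubb3, chr1:66175079-66175378 for Map2 and chr2:22622077-22622376 for Gad2, all on the plus strand and written 5′ to 3′. Capitals mark exact motif matches.
Tubb3: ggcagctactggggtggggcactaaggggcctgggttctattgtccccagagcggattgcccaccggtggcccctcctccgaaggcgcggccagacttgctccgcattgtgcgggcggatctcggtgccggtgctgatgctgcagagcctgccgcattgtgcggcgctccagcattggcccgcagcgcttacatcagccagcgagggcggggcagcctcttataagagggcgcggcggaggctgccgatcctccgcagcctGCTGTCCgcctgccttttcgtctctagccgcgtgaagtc
Map2: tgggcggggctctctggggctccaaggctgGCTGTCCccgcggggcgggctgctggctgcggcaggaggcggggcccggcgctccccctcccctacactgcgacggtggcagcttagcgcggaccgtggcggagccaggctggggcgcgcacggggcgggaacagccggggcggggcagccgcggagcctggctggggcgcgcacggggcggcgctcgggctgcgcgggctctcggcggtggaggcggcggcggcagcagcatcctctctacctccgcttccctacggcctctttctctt
Gad2: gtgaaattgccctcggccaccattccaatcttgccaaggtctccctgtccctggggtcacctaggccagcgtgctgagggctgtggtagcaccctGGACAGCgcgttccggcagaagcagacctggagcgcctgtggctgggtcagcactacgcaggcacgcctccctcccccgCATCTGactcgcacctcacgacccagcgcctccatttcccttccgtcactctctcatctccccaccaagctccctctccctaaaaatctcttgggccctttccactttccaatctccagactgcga

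The capitals in Tubb3 and Map2 are the right part of RE1 (GGACAGC) read on the opposite strand, at positions 12 and -220 from the start. In Gad2 the same letters lie on the plus strand at -155, and the second run of capitals at -76 is the E-box CAGATG on the opposite strand. GGACAGC occurred on either strand in 6.56% of 32851 promoter windows and CAGATG, which a window of Slc17a6 also held, in 17.2%. No member window held the left part of RE1 (TTCAGCACC, in 0.371% of windows), the E-box CAGCTG (16.3%), or a direct repeat of AGGTCA (0.00913%) or of AGTTCA (0.0244%) with 5 bases between the repeats, forms that RA receptors bind. TATAAA (13.6%) was found in Dcx and Gad1 only. The searched motifs did not overlap in these windows, and a match of letters is not a binding site.

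Levels are given as CPM after TMM scaling, which sets libraries to a common composition. The deposited counts had been scaled for transcript length, so levels can also be compared between genes. Library totals ran from 17370100 to 30738700 counts, and 3 counts in a library, taken as the detection floor, were worth 0.0838 to 0.297 CPM. A count is not a fragment: from the steps between low values, 1 fragment was estimated to be worth 0.0837 to 0.745 counts for the members, least for the long transcripts of Map2 and Dcx. A value under the floor can therefore still rest on sequenced fragments.

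Faf2, the targeted gene, read 50, 38.8 and 36.0 CPM in WT NO, 35.1, 37.9 and 49.1 CPM in WT RA, 21.0, 21.7 and 25.4 CPM in KO NO and 36.1, 34.4 and 18.8 CPM in KO RA. KO NO lay below WT NO in every library, but KO RA overlapped WT RA. A value summed over all exons does not check the removal of exon 4. The progenitor markers Vim (204 ± 26.3 CPM in WT NO, SD, n = 3) and Sox2 (36.9 ± 11.5 CPM) were present. Pou5f1, a marker of pluripotent cells, read 1852 ± 613 CPM in WT NO.

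KO RA replicate 3 stood apart from all other libraries. Its TMM factor was 0.394 against 0.872 to 1.28 elsewhere, and ribosomal protein genes (27.8% of counts) and mitochondrial genes (23.5%) took their highest shares in it. Against the mean of KO RA replicates 1 and 2, on the log2 scale of CPM + 0.1, its median difference moved with the length of the canonical transcript, from 1.25 below 1000 bases to -1.03 above 5000 bases. Among the members the difference was 1.31 for Stmn2, 0.67 for Slc17a6 and -0.65 to -2.49 for the other 8, lowest for Dcx and Map2, which have the longest transcripts. The values that rest most on this library are given with and without it, and the part of transcript length was not tested.

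**Figure D1:**
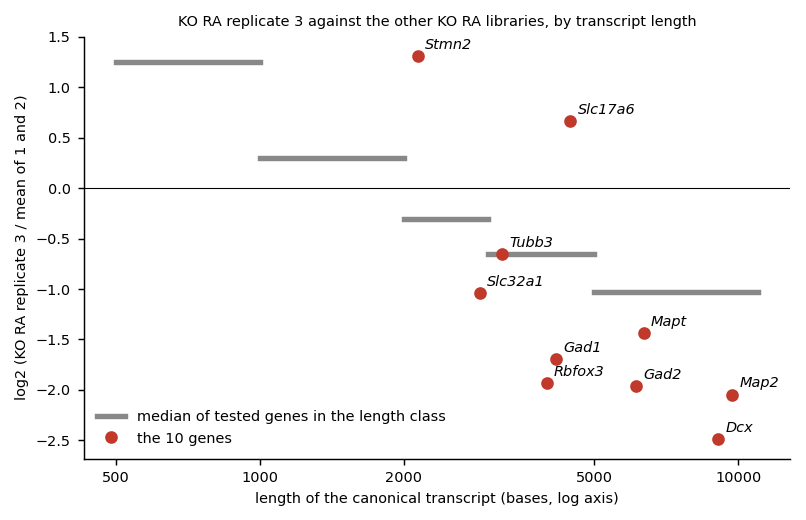
Log2 difference of KO RA replicate 3 from the mean of KO RA replicates 1 and 2 (vertical axis) against canonical transcript length in bases (horizontal log axis), with red points for the 10 genes and grey bars for medians of the tested genes in 5 length classes, the outer classes drawn from 500 and to 11000 bases. The medians step down from 1.25 to -1.03, and Dcx (-2.49) and Map2 (-2.05) lie lowest.

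Stmn2 and Tubb3 stood well above the other members in level. In WT NO, Stmn2 averaged 60.1 ± 21.0 CPM and Tubb3 26.0 ± 4.56 CPM (SD, n = 3), at percentiles 87.2 and 73.3 of the tested genes. Map2 (3.25 ± 1.34 CPM), Rbfox3 (2.36 ± 2.17 CPM), Dcx (1.36 ± 1.04 CPM) and Mapt (1.20 ± 0.450 CPM) followed, and neighbours in this order did not differ beyond their spread. The transmitter genes were lowest, from 0.536 ± 0.740 CPM for Slc32a1 to 0.105 ± 0.133 CPM for Gad2, percentiles 15.7 to 3.02. In bulk samples, fewer cells that express a gene and less of its RNA per cell cannot be told apart.

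**Figure D2:**
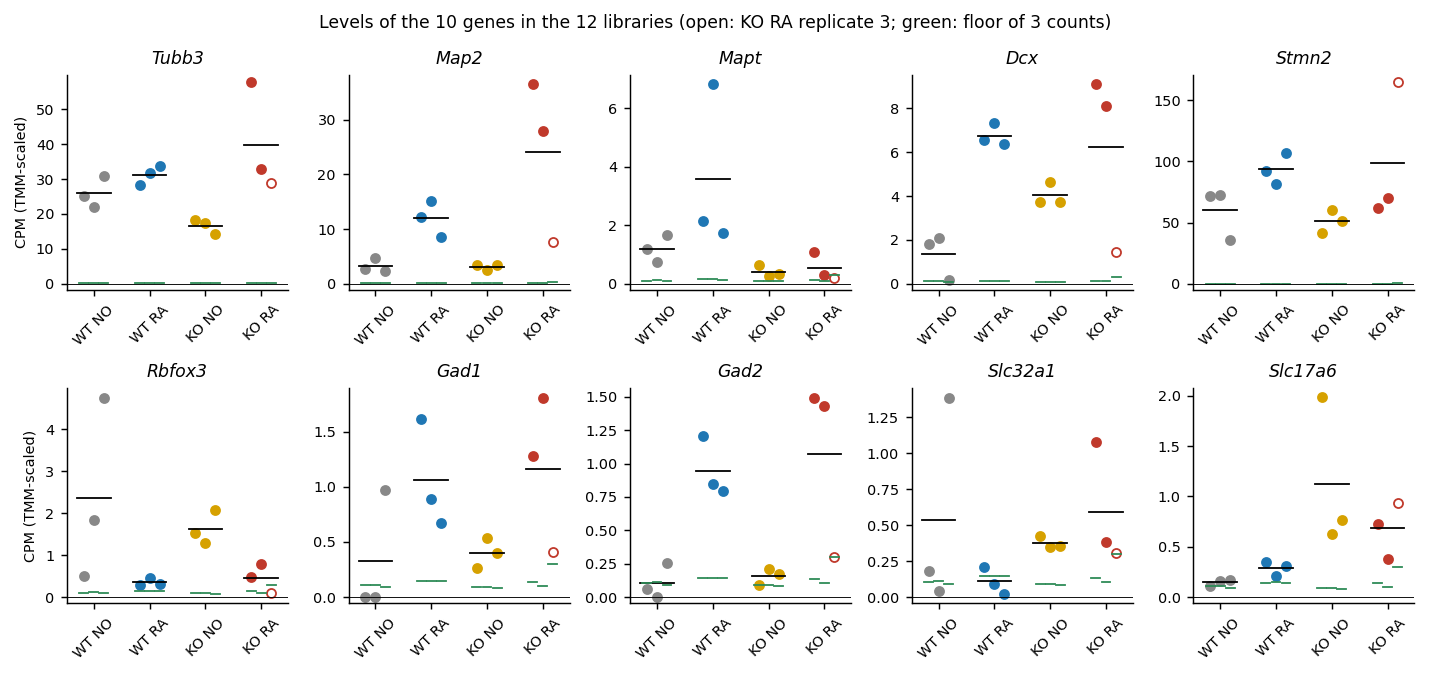
TMM-scaled CPM (vertical axes, starting near 0, 1 scale per gene) of the 10 genes in WT NO, WT RA, KO NO and KO RA, with a point for each library, a black line at the group mean, a green tick at each library's floor of 3 counts and an open point for KO RA replicate 3. Map2 runs from 2.32 to 4.79 CPM in WT NO and from 7.73 to 36.6 CPM in KO RA.

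The comparison of RA-induced with untreated KO cells asks whether KO cells respond to induction at the level of transcripts, and here Tubb3 and Map2 rose. They were 2 of 10 members called higher and 0 lower, against 3.89% called higher and 1.59% lower among all genes (edgeR quasi-likelihood test, adjusted p under 0.05 over 16502 genes). At an unadjusted p under 0.05 the members counted 4 higher and 1 lower, against 15.8% and 9.42% of all genes. The 2 groups did not overlap for 4 members with higher KO RA values (Tubb3, Map2, Stmn2 and Gad2) and 1 with lower (Rbfox3), against 13.3% and 17.0% of all genes. Without TMM scaling KO RA overlapped KO NO for these 4 higher members, through KO RA replicate 3. Without KO RA replicate 3, edgeR called 3 members higher (Tubb3, Map2 and Gad2), against 8.48% of all genes higher and 7.54% lower, and the groups did not overlap for 6 higher members (with Dcx and Gad1 added), against 27.5% of all genes. The median log2 difference of the members was 0.80 and that of all genes 0.11, which DESeq2 size factors moved to 0.90 and 0.19. Without KO RA replicate 3 these medians were 1.01 and -0.021.

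Tubb3 (ENSMUSG00000062380, chr8:124138163-124150092 in GRCm39, plus strand) read 25.1, 22.0 and 31.0 CPM in WT NO, 28.3, 31.9 and 33.7 CPM in WT RA, 18.3, 17.5 and 14.1 CPM in KO NO and 57.8, 33.0 and 28.8 CPM in KO RA. Each KO RA library was above each KO NO library, and WT NO values were without exception above those of KO NO. Without TMM scaling KO RA replicate 3 read 11.3 CPM, below the KO NO libraries at 21.3, 19.2 and 17.0 CPM. The log2 fold change of KO RA over KO NO was 1.26 (SE 0.27, edgeR adjusted p = 0.0243), and 1.43 (SE 0.23, adjusted p = 0.00321) without KO RA replicate 3. The call was lost without any 1 of the 3 KO NO libraries, where the adjusted p was 0.0767, 0.0985 and 0.101. In WT cells the 2 groups overlapped, with a log2 fold change of 0.27 (SE 0.27, edgeR adjusted p = 0.772). KO RA overlapped WT RA, with a log2 difference of 0.35 (SE 0.27, edgeR adjusted p = 0.523). The lower level in KO NO than in WT NO, -0.64 (SE 0.27, edgeR adjusted p = 0.356), did not pass the test.

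Map2 (ENSMUSG00000015222, chr1:66214327-66481746, plus strand) read 2.66, 4.79 and 2.32 CPM in WT NO, 12.2, 15.2 and 8.56 CPM in WT RA, 3.39, 2.48 and 3.47 CPM in KO NO and 36.6, 27.9 and 7.73 CPM in KO RA. In both genotypes each RA library lay above each untreated library, and the lowest RA value of all was that of KO RA replicate 3. Without TMM scaling that library read 3.04 CPM, within the KO NO values of 3.95, 2.72 and 4.16 CPM. The log2 fold change of KO RA over KO NO was 2.95 (SE 0.52, edgeR adjusted p = 0.0101), and 3.36 (SE 0.33, adjusted p = 0.00027) without that library. The call was lost without KO NO replicate 1 (adjusted p = 0.0525) or replicate 2 (0.0658). In WT cells the log2 fold change was 1.88 (SE 0.50, edgeR adjusted p = 0.147), and it passed without KO RA replicate 3 (1.89, SE 0.30, adjusted p = 0.00585), under DESeq2 (adjusted p = 0.00451) or in a fit of the WT libraries alone (adjusted p = 0.0362). KO RA overlapped WT RA through replicate 3 alone. The log2 difference between them was 1.01 (SE 0.48, edgeR adjusted p = 0.302) with it and 1.42 (SE 0.31, adjusted p = 0.0206) without it.

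The call for Tubb3 and Map2 in KO cells also depended on which libraries set the spread. In a fit of the KO libraries alone, edgeR gave an adjusted p of 0.148 for Tubb3 and 0.0761 for Map2. Over the 20 alternatives tried, the adjusted p was under 0.05 in 15 for Tubb3 and in 17 for Map2, and the log2 fold change stayed between 0.93 and 1.43 for Tubb3 and between 2.54 and 3.36 for Map2.

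**Figure D3:**
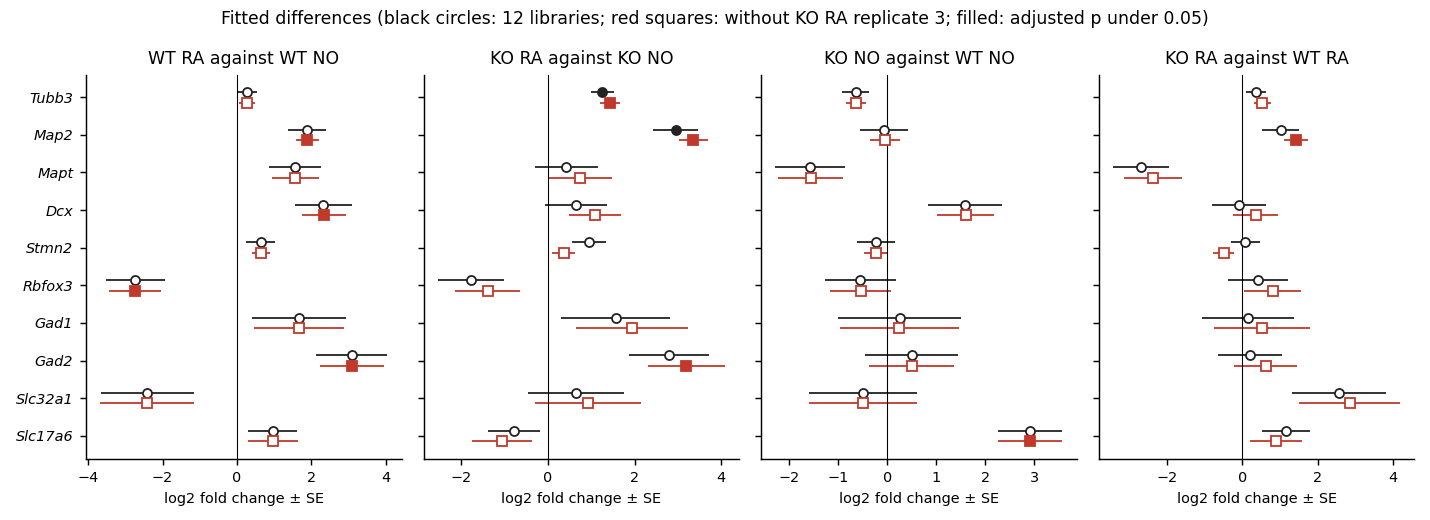
Fitted log2 fold changes with SE (horizontal axes, 1 panel per comparison) of the 10 genes from 12 libraries (black circles) and without KO RA replicate 3 (red squares). Filled symbols have an adjusted p under 0.05, which with 12 libraries holds for Tubb3 and Map2 in KO RA against KO NO and for no other point.

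In WT cells, RA induction gave 0 of 10 members called, against 0.321% called higher and 0.0848% lower among all genes, so this fit called few genes of any kind. At an unadjusted p under 0.05, 4 members were higher (Map2, Mapt, Dcx and Gad2) and 1 lower (Rbfox3), against 6.76% and 5.79% of all genes. The 2 groups did not overlap for 6 members with higher and 1 with lower WT RA values, against 15.2% and 13.9% of all genes. Without TMM scaling they overlapped for Mapt. Without KO RA replicate 3, 3 members were called higher (Map2, Dcx and Gad2) and 1 lower (Rbfox3), against 5.65% and 5.13% of all genes, and DESeq2 called the same 4 genes, against 3.10% and 2.50%. The members' median log2 fold change was 1.26 and that of all genes -0.0084.

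Dcx (ENSMUSG00000031285, chrX:142638838-142716307, minus strand) read 1.81, 2.09 and 0.164 CPM in WT NO, 6.56, 7.33 and 6.37 CPM in WT RA, 3.73, 4.66 and 3.72 CPM in KO NO and 9.10, 8.12 and 1.45 CPM in KO RA. Doublecortin RNA was thus lowest in untreated WT cells, where no library reached the level of KO NO, and KO RA replicate 3 was the only RA library below 6 CPM. The log2 fold change of WT RA over WT NO was 2.32 (SE 0.76, edgeR adjusted p = 0.236), and 2.34 (SE 0.59, adjusted p = 0.0317) without KO RA replicate 3. In KO cells it was 0.65 (SE 0.72, edgeR adjusted p = 0.600), and 1.08 (SE 0.60, adjusted p = 0.248) without that library. KO NO was higher than WT NO by 1.58 (SE 0.75, edgeR adjusted p = 0.432).

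Mapt (ENSMUSG00000018411, chr11:104122024-104222946, plus strand) read 1.18, 0.758 and 1.66 CPM in WT NO, 2.14, 6.82 and 1.73 CPM in WT RA, 0.629, 0.275 and 0.341 CPM in KO NO and 1.08, 0.311 and 0.194 CPM in KO RA. Tau RNA was lower in every KO library than in every WT library of the same treatment. KO RA replicate 3 was under the floor of 3 counts, though with an estimated 15.1 fragments. The log2 difference of KO RA from WT RA was -2.70 (SE 0.74, edgeR adjusted p = 0.106), and -2.38 (SE 0.77, adjusted p = 0.0786) without that library. DESeq2 gave -2.67 (adjusted p = 0.00858). In untreated cells the difference was -1.56 (SE 0.71, edgeR adjusted p = 0.410). WT RA lay above WT NO by 1.56 (SE 0.69, edgeR adjusted p = 0.387), with WT RA replicate 2 far above the other WT RA libraries. Without WT RA replicate 2 this difference was 0.68 (SE 0.70, edgeR adjusted p = 0.854), and that of KO RA from WT RA -1.83 (SE 0.71, edgeR adjusted p = 0.329).

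Stmn2 (ENSMUSG00000027500, chr3:8574151-8626667, plus strand) read 71.9, 72.6 and 35.9 CPM in WT NO, 92.1, 81.7 and 107 CPM in WT RA, 41.6, 60.2 and 51.4 CPM in KO NO and 62.3, 70.3 and 165 CPM in KO RA. The highest value, in KO RA replicate 3, depended on its TMM factor: the same library read 64.7 CPM without TMM scaling, below the other KO RA libraries at 79.4 and 86.0 CPM. Stathmin-2 RNA was higher in each RA group than in its untreated group, by 0.64 in WT (SE 0.39, edgeR adjusted p = 0.561) and 0.95 in KO (SE 0.39, edgeR adjusted p = 0.163), and neither difference passed the test. Without KO RA replicate 3 the difference in KO was 0.37 (SE 0.27, adjusted p = 0.389). KO RA differed from WT RA by 0.080 (SE 0.39, edgeR adjusted p = 0.937) with that library and by -0.50 (SE 0.27, adjusted p = 0.270) without it.

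Rbfox3, which marks mature neuronal nuclei, read lower with RA. Rbfox3 (ENSMUSG00000025576, chr11:118380442-118802423, minus strand) read 0.512, 1.83 and 4.75 CPM in WT NO, 0.286, 0.449 and 0.317 CPM in WT RA, 1.53, 1.29 and 2.07 CPM in KO NO and 0.470, 0.792 and 0.0910 CPM in KO RA. Both RA groups lay below their untreated groups without overlap, and KO RA replicate 3 was under its floor of 0.297 CPM, at an estimated 4.35 fragments. The log2 fold change with RA was -2.73 in WT (SE 0.79, edgeR adjusted p = 0.183) and -1.77 in KO (SE 0.76, edgeR adjusted p = 0.181). Without KO RA replicate 3 the WT value was called (-2.73, SE 0.70, adjusted p = 0.0345) and the KO value was not (-1.39, SE 0.76, adjusted p = 0.243). WT NO replicate 3 alone held the highest level, and across the 12 libraries Rbfox3 and Stmn2 had a Pearson correlation of -0.89 on the log2 scale, a description over libraries that pool 4 groups.

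RNA of Gad2, a GABA-making enzyme, was low in untreated cells. Gad2 (ENSMUSG00000026787, chr2:22511862-22583886, plus strand) read 0.0598, 0 and 0.254 CPM in WT NO, 1.20, 0.845 and 0.797 CPM in WT RA, 0.0885, 0.211 and 0.174 CPM in KO NO and 1.49, 1.43 and 0.300 CPM in KO RA. In WT NO, 2 libraries were at or under 3 counts, and every RA library lay above every untreated library. KO RA replicate 3 lay just above its floor of 0.297 CPM. Without TMM scaling it read 0.118 CPM, below KO NO replicates 2 and 3 (0.231 and 0.209 CPM) and WT NO replicate 3 (0.306 CPM). The log2 fold change was 3.08 in WT (SE 0.96, edgeR adjusted p = 0.208) and 2.79 in KO (SE 0.93, edgeR adjusted p = 0.105). Without KO RA replicate 3 both were called, at 3.08 (SE 0.86, adjusted p = 0.0466) and 3.20 (SE 0.89, adjusted p = 0.0336). DESeq2 called both with all libraries (adjusted p = 0.0133 and 0.00764). The estimated fragments behind these values were 0 to 36.3 in a WT NO library and 22.4 to 177 in a KO RA library.

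Gad1 (ENSMUSG00000070880, chr2:70383416-70432372, plus strand) read 0, 0 and 0.968 CPM in WT NO, 1.62, 0.894 and 0.673 CPM in WT RA, 0.262, 0.534 and 0.396 CPM in KO NO and 1.28, 1.81 and 0.407 CPM in KO RA. With RA its mean was higher in both genotypes, but a single untreated WT library at 0.968 CPM overlapped the RA group. The log2 fold change was 1.66 in WT (SE 1.27, edgeR adjusted p = 0.673) and 1.56 in KO (SE 1.25, edgeR adjusted p = 0.453). With KO RA replicate 3 left out the KO value was 1.94 (SE 1.29, adjusted p = 0.341). A count of 0 allows up to 0.106 and 0.111 CPM in WT NO replicates 1 and 2. Without WT NO replicate 3 the WT NO libraries left were both at 0, and edgeR then called KO NO higher (adjusted p = 0.0487), a fold that has no measured base.

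Gad1os, a long non-coding RNA annotated on the opposite strand, has exons that overlap those of Gad1. It read 1.86, 0.732 and 1.73 CPM in WT NO, 0, 0.271 and 0 CPM in WT RA, 0.407, 0.544 and 0 CPM in KO NO and 0.287, 0 and 0 CPM in KO RA. WT NO held its highest values, and 2 of those 3 libraries read 0 for Gad1. The strand setting of the counting is not given in the sources used here, so reads of the 2 genes may not have been told apart, and the Gad1 values in WT NO are uncertain for this reason.

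**Figure D4:**
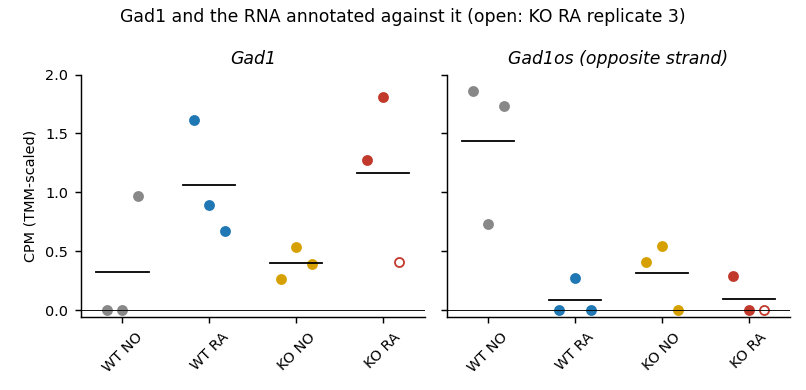
TMM-scaled CPM (vertical axis from 0) of Gad1 and of Gad1os, annotated on the opposite strand, in the 12 libraries by group, with black lines at group means and KO RA replicate 3 open. Gad1 is at 0 in 2 of the 3 WT NO libraries, where Gad1os reads 1.86 and 0.732 CPM.

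Slc32a1 (ENSMUSG00000037771, chr2:158452605-158464883, plus strand) read 0.183, 0.0389 and 1.39 CPM in WT NO, 0.211, 0.0923 and 0.0216 CPM in WT RA, 0.424, 0.350 and 0.356 CPM in KO NO and 1.08, 0.386 and 0.305 CPM in KO RA. The vesicular GABA transporter had another order of groups than Gad2, since 2 WT RA libraries were under the floor, and every KO RA library lay above every WT RA library. KO RA replicate 3 lay just above its floor of 0.297 CPM. Without TMM scaling it read 0.120 CPM, below WT RA replicate 1 (0.184 CPM). The difference of KO RA from WT RA was 2.57 on the log2 scale (SE 1.26, edgeR adjusted p = 0.312) and that of WT RA from WT NO was -2.41 (SE 1.24, edgeR adjusted p = 0.470). With KO RA replicate 3 left out the first was 2.85 (SE 1.34, adjusted p = 0.207). WT NO replicate 3 read 1.39 CPM, higher than the other WT NO libraries, and also stood high for Rbfox3 and Gad1. The difference of WT RA from WT NO was -0.14 (SE 1.15, edgeR adjusted p = 0.988) without it.

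Slc17a6 (ENSMUSG00000030500, chr7:51271434-51320867, plus strand) read 0.108, 0.164 and 0.174 CPM in WT NO, 0.349, 0.213 and 0.313 CPM in WT RA, 1.99, 0.624 and 0.766 CPM in KO NO and 0.729, 0.378 and 0.937 CPM in KO RA. The vesicular glutamate transporter was higher in every KO library than in every WT library, whatever the treatment. The WT values lay near the floor of 3 counts, with 3.08, 4.44 and 5.69 counts in WT NO and 7.26, 4.40 and 6.54 in WT RA. WT NO replicate 1 was just above its floor of 0.106 CPM, so the folds against WT rest on few counts. KO NO exceeded WT NO by 2.90 on the log2 scale (SE 0.66, edgeR adjusted p = 0.0653), just outside the threshold. It passed without KO RA replicate 3 (2.91, SE 0.66, adjusted p = 0.0233), under DESeq2 (2.94, adjusted p = 0.00379) and when values were turned back into fragments (2.88, adjusted p = 0.0376). The adjusted p was under 0.05 in 4 of 19 alternatives and reached 0.339 without KO NO replicate 1, where the difference was 2.19 (SE 0.69). KO RA exceeded WT RA by 1.16 (SE 0.64, edgeR adjusted p = 0.355). With RA the value was 0.96 in WT (SE 0.66, edgeR adjusted p = 0.620) and -0.78 in KO (SE 0.61, edgeR adjusted p = 0.437).

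Between genotypes, edgeR called 0 of 10 members in untreated cells, against 0.788% of all genes higher and 0.351% lower in KO NO. At an unadjusted p under 0.05, 1 member was higher (Slc17a6) and 2 lower (Tubb3 and Mapt), against 5.81% and 6.37% of all genes. KO NO and WT NO did not overlap for 2 members that were higher (Dcx and Slc17a6) and 2 that were lower (Tubb3 and Mapt), against 15.5% and 15.2% of all genes. DESeq2 called 1 member, Slc17a6, against 3.13% of all genes higher and 3.02% lower, and edgeR without KO RA replicate 3 called the same gene, against 4.43% and 4.35%. In RA-induced cells 0 of 10 members were called by edgeR, against 0.885% higher and 0.358% lower, with 0 higher and 1 lower (Mapt) at an unadjusted p under 0.05, against 10.9% and 6.67%. The groups did not overlap for 2 higher members (Slc32a1 and Slc17a6) and 1 lower (Mapt), against 9.87% and 10.9% of all genes. KO RA and WT RA overlapped for Slc32a1 without TMM scaling. Without KO RA replicate 3 the groups did not overlap for 6 higher and 2 lower members, against 25.6% and 22.1% of all genes, and edgeR called Map2, against 4.42% higher and 5.44% lower. DESeq2 called Mapt lower, against 2.95% of all genes lower and 5.02% higher. The median log2 difference of the members was -0.15 in untreated and 0.28 in RA-induced cells, against -0.020 and 0.091 for all genes. In RA-induced cells without KO RA replicate 3 it was 0.57, against 0.014 for all genes.

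Whether KO and WT cells responded differently to RA was tested as the interaction. EdgeR called 0 of 10 members and 0 of 16502 genes, with 913 genes (5.53%) above and 510 (3.09%) below 0 at an unadjusted p under 0.05. DESeq2 called 309 genes at an adjusted p under 0.05, and 0 of 10 members. The Tubb3 response exceeded that in WT by 0.99 on the log2 scale (SE 0.38, edgeR adjusted p = 0.506, the only member with an unadjusted p under 0.05), and by 1.17 (SE 0.31, adjusted p = 0.0882) without KO RA replicate 3. For Map2 the excess was 1.07 (SE 0.69, edgeR adjusted p = 0.670). It ran from 0.66 to 1.47 when a library was left out, with edgeR adjusted p from 0.112 to 0.839. Without KO RA replicate 3, 2 members were above 0 at an unadjusted p under 0.05. The 4 comparisons share groups of libraries, so their values are not independent of each other.

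The wider cytoskeletal genes gave calls in both directions in KO cells. Of 29 other genes of microtubules and axonal transport, 6 rose and 2 fell in KO RA against KO NO, and 10 rose and 3 fell without KO RA replicate 3. Among all genes 3.89% were called higher and 1.59% lower, and 8.48% and 7.54% without KO RA replicate 3. The median log2 fold change was 0.21, and 0.11 for all genes, or 0.25 and -0.021 without KO RA replicate 3. These values for all genes also apply to the lists that follow in this comparison. Tubb2b, a beta-tubulin of developing neurons, rose by 1.45 (SE 0.22, edgeR adjusted p = 0.00540), from 44.8 ± 2.75 to 122 ± 15.1 CPM (SD, n = 3). It was also the single gene of the list called in WT with all libraries, by 1.49 (SE 0.22, edgeR adjusted p = 0.0273). Without KO RA replicate 3, 4 of the list were higher and 2 lower in WT, against 5.65% and 5.13% of all genes. In KO, Dpysl4, of the collapsin response mediators, rose by 2.97 (SE 0.54, edgeR adjusted p = 0.0116) and Stmn3, a stathmin, by 2.60 (SE 0.54, edgeR adjusted p = 0.0201). Tubb4b and Tuba4a, other tubulins, fell by 1.40 and 1.44 (edgeR adjusted p = 0.00712 and 0.00791). The most abundant tubulins, Tuba1b (950 ± 32.8 CPM in KO NO) and Tubb5 (782 ± 13.6 CPM), read 843 ± 160 and 610 ± 280 CPM in KO RA, and neither was called. For the lists that follow, the shares of all genes called in the other comparisons with all libraries are those given above. Without KO RA replicate 3 they are 5.65% higher and 5.13% lower in WT RA against WT NO. In KO NO against WT NO they are 4.43% and 4.35%, and in KO RA against WT RA 4.42% and 5.44%. The interaction has 0.802% and 0.537%.

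Of 14 growth cone and filament genes 13 were tested, and 3 rose and 1 fell in KO RA against KO NO. The median log2 fold change was 0.57, and 0.30 without KO RA replicate 3. Gap43, a membrane protein of growth cones, rose by 3.45 (SE 0.37, edgeR adjusted p = 0.000876), from 3.91 ± 0.573 to 43.1 ± 20.4 CPM. In KO RA it also exceeded WT RA (11.9 ± 3.81 CPM) by 1.85 (SE 0.35, edgeR adjusted p = 0.0358), the single call of the list between genotypes with all libraries. Ncam1, a neural adhesion molecule, rose by 2.23 (SE 0.39, edgeR adjusted p = 0.00992) and Basp1, a growth cone protein, by 0.80 (SE 0.20, edgeR adjusted p = 0.0411). Nefh, the heavy neurofilament subunit of mature axons, fell by 2.44 (SE 0.52, edgeR adjusted p = 0.0233), from 2.07 ± 0.471 to 0.354 ± 0.144 CPM. In WT 0 of the 13 were called with all libraries. With KO RA replicate 3 left out, 4 were higher and 2 lower in KO RA against KO NO, 2 higher and 2 lower in WT RA against WT NO, and 3 higher in KO RA against WT RA.

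Among 15 neuronal RNA-binding proteins, the group of Rbfox3, 13 were tested and 2 rose in KO RA against KO NO, with none called in the other comparisons. The median log2 fold change in KO RA against KO NO was 1.17, and 1.20 without KO RA replicate 3. With KO RA replicate 3 left out 14 were tested, and 6 were called higher in KO RA against KO NO. In KO NO against WT NO 2 were then lower (4.35% of all genes). Called higher were 1 in WT RA against WT NO (5.65%), 1 in KO RA against WT RA (4.42%) and 1 in the interaction (0.802%). Nova1, a neuronal splicing regulator, rose by 1.30 (SE 0.28, edgeR adjusted p = 0.0224) and Khdrbs3 by 1.05 (SE 0.22, edgeR adjusted p = 0.0220). Ptbp2 (108 ± 26.3 CPM in KO NO and 129 ± 54.0 CPM in KO RA) and Rbfox2 (56.8 ± 6.79 and 76.3 ± 28.3 CPM) were the most abundant and were not called.

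Transmitter genes beyond the members gave few calls. Of 15 GABA genes 11 were tested and 2 rose in KO RA against KO NO, with a median log2 fold change of 1.36. Gabbr1, a subunit of the metabotropic GABA receptor, rose by 2.55 (SE 0.48, edgeR adjusted p = 0.0132). Without KO RA replicate 3, 1 of 12 tested genes of the list was called higher and the median was 0.81. Of 18 glutamate genes 10 were tested and 1 rose: Gria2, a subunit of the AMPA receptor, was at 0 in all KO NO libraries and averaged 0.619 ± 0.231 CPM in KO RA, at least 7.13-fold higher when set against 3 counts per library (edgeR adjusted p = 0.0138). Of 17 genes for acetylcholine, monoamines and glycine 5 were tested, and Ddc, which makes dopamine and serotonin from their precursors, rose by 3.31 (SE 0.77, edgeR adjusted p = 0.0327) with KO RA replicate 3 and by 1.52 (adjusted p = 0.0116) without it. Slc17a8, Slc1a1, Chat, Slc6a2 and Slc6a3 were at or under 3 counts in every library.

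Of 24 synaptic genes 19 were tested. Cplx2, a complexin of the synaptic vesicle release machinery, rose by 2.90 in KO RA against KO NO (SE 0.47, edgeR adjusted p = 0.00712), and its paralog Cplx1 differed in KO NO from WT NO by -2.34 (SE 0.43, edgeR adjusted p = 0.0268). These were the 2 calls of the list with all libraries. Once KO RA replicate 3 was left out, 7 of 22 genes were higher in KO RA against KO NO. WT RA against WT NO then had 2 higher and 2 lower. KO RA against WT RA had 2 higher and 1 lower, and KO NO against WT NO 2 lower. The most abundant, Vamp2 and Dlg4, averaged 13.2 ± 2.13 and 14.3 ± 1.47 CPM in WT NO.

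Of 33 transcription factors of neuronal commitment and transmitter choice 21 were tested, and 8 rose and 1 fell in KO RA against KO NO, with a median log2 fold change of 2.05, also when genes at the floor in a group were set to their bound. With KO RA replicate 3 left out, 11 of 25 tested were higher and 2 lower, with a median of 2.09. Insm1, of neurogenic progenitors, rose by 3.00 (SE 0.42, edgeR adjusted p = 0.00396). Myt1 was at or under 3 counts in every KO NO library and was at least 11.4-fold higher in KO RA (edgeR adjusted p = 0.0124). Dlx6, of forebrain GABA neurons, was higher in KO NO (7.82 ± 1.53 CPM) than in WT NO (0.227 ± 0.110 CPM) by 5.03 (SE 0.80, edgeR adjusted p = 0.0157) and fell in KO RA by 2.94 (SE 0.72, edgeR adjusted p = 0.0397). In WT, Lbx1, of hindbrain and spinal cord neurons, was the single call with all libraries and at least 15.8-fold higher in WT RA than in WT NO (edgeR adjusted p = 0.0359). Without KO RA replicate 3, 3 of the list were higher and 1 lower in WT RA against WT NO. REST and its corepressors, 11 genes, gave 0 calls in each of the 5 tests by edgeR with all libraries, with a median of 0.016 in KO RA against KO NO. Leaving out KO RA replicate 3 moved this median to 0.17 and gave 3 higher and 2 lower in KO RA against KO NO. Each of the other 3 comparisons of groups then had 1 call. The most abundant genes of the REST list were Hdac1 (214 ± 14.8 CPM in KO NO and 135 ± 19.6 CPM in KO RA) and Hdac2 (150 ± 16.3 and 241 ± 131 CPM).

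**Figure D5:**
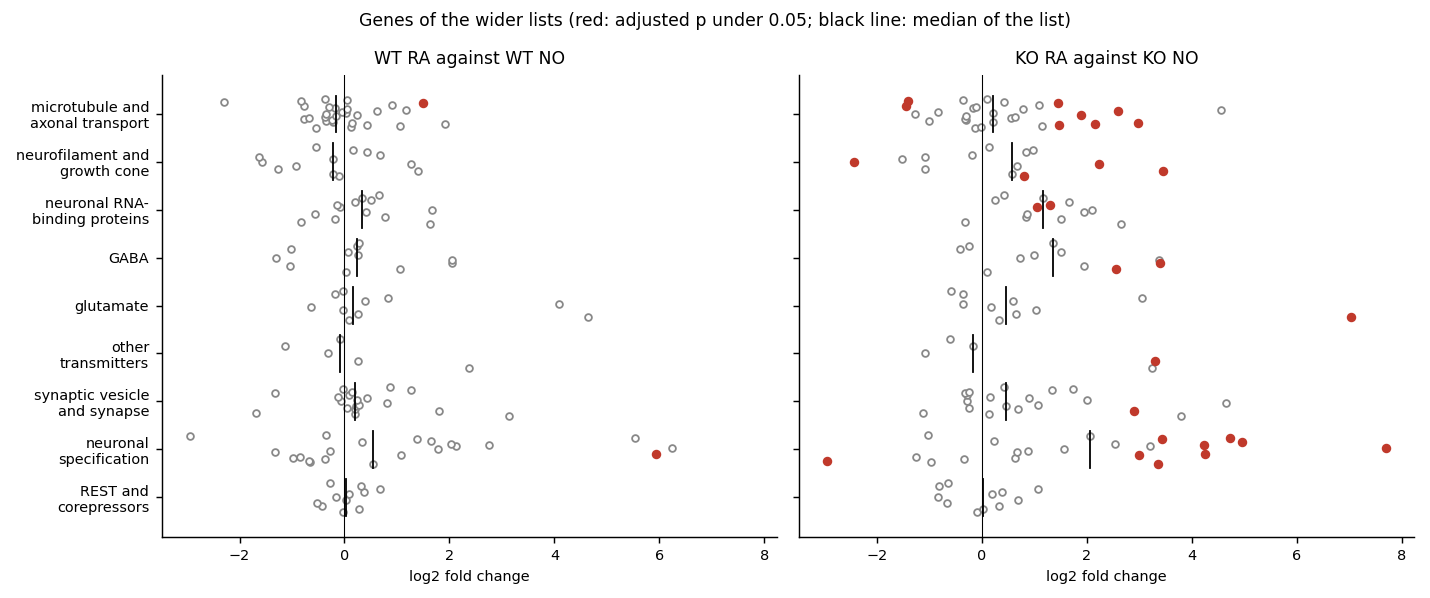
Fitted log2 fold changes (horizontal axes) of the genes in 9 wider lists for WT RA against WT NO and KO RA against KO NO, with a point per tested gene, red at an adjusted p under 0.05, and a black line at each list's median; values of genes at the floor in a group depend on the prior count. In KO, 8 genes of neuronal specification were called higher and 1 lower, and none of the REST list.

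Markers of other cell types moved with the same comparison. The summed CPM of 8 mesenchymal markers was 46.6 to 47.8 in KO NO and 216 to 1058 in KO RA, and 44.0 to 99.2 in WT NO and 111 to 276 in WT RA, with 5 of 8 called higher in KO RA and 3 of 8 in WT RA. Tagln and Acta2, the most abundant of them, averaged 296 ± 405 and 128 ± 75.5 CPM in KO RA. The sum of 10 progenitor markers was 248 to 305 CPM in KO NO and 757 to 973 CPM in KO RA, with 6 called higher. It was 362 to 408 CPM in WT NO and 467 to 682 CPM in WT RA, with 0 called. A sum weighs the most abundant marker, Vim, the most, and Vim was among those called in KO (2.06, SE 0.30, edgeR adjusted p = 0.00472). Between genotypes 1 progenitor marker was called lower in KO NO. The same marker was called lower in KO RA, where 1 other was higher. The sum of 9 neuroendocrine markers, such as Scg2 and Scg5, was 4.86 to 6.11 CPM in KO NO and 13.9 to 32.6 CPM in KO RA, with 1 of 7 tested called. Endothelial markers (6 genes, led by Kdr and Pecam1) summed to 1.09 to 2.02 CPM in KO NO and 6.48 to 14.6 CPM in KO RA, with 3 of 4 tested called. Their part in the values of Tubb3, Map2 and the other members was not tested.

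Astroglial markers (7 genes, led by Gja1 and Aldoc, with Aqp4 and S100b at or under 3 counts in every library) gave 0 calls, and summed to 180 to 283 CPM in KO NO and 101 to 264 CPM in KO RA. Oligodendrocyte markers (8 genes, led by Mbp and Pdgfra, with Olig2 under the floor) summed to 3.26 to 3.52 CPM in KO NO and 2.99 to 24.4 CPM in KO RA, with Mbp called. Neural crest markers (7 genes, led by Tfap2a and Foxd3) summed to 9.20 to 15.4 CPM in KO NO and 5.31 to 16.2 CPM in KO RA, with 1 of 5 tested called higher and 1 lower. Haematopoietic markers (6 genes, led by Cd68 and Hba-a1, with Csf1r under the floor) summed to at most 5.39 CPM in any library, and pluripotency markers (6 genes, led by Pou5f1 and Tdgf1) to 1355 to 3619 CPM, with 0 calls in either list with all libraries. Without KO RA replicate 3, pluripotency calls were 1 higher in WT RA against WT NO and 1 lower in KO RA against WT RA.

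Some genes followed single members closely over the 12 libraries, by Pearson correlation of log2 CPM among 16502 genes. For Tubb3 these were Rgs7 (0.95), Sez6 (0.95) and Dpysl4 (0.94), and for Map2 they were Robo2 (0.98), Plxna2 (0.96) and Ncam1 (0.96). The closest to Dcx was Rusc2 (0.96), to Stmn2 Fgfr1op2 (0.97), to Rbfox3 Atg4d (0.96), to Mapt Nrbp2 (0.91), to Gad1 Tmf1 (0.93), to Gad2 Cd99l2 (0.97), to Slc32a1 Fbxo27 (0.92) and to Slc17a6 Slc43a3 (0.94). Between members, Gad1 and Gad2 reached 0.88, Map2 and Gad2 0.83 and Tubb3 and Map2 0.75. The points share libraries and group means and each leader was picked from many genes, so these values describe likeness and carry no test.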

How the data were processed

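Poly(A) RNA of 12 NE-4C libraries was sequenced as paired ends. Per the study's methods, the authors ran nf-core/rnaseq with STAR and Salmon on GRCm39. The deposited estimated counts per gene are named as scaled counts and were read as TPM scaled to each library's total, and so corrected for transcript length. The values are not whole, and 88.8% to 91.4% of the low values tested came out as whole fragments (within 0.1 of a whole number) once transcript length was taken into account. The strand setting is not given in the sources used here.

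Values were rounded, filtered with filterByExpr (16502 of 57010 genes kept), scaled by TMM and fitted with the robust quasi-likelihood test of edgeR 4.0.16 (R 4.3.3) over all 12 libraries, with Benjamini-Hochberg adjustment and a threshold of 0.05. The common dispersion was 0.215 with 8 residual degrees of freedom. Alternatives were DESeq2 1.42.0, DESeq2 size factors, other filters, a replicate block, fits of the compared groups alone and leaving out each library. Values turned back into fragments, with and without KO RA replicate 3, were added after seeing the data. The fits were tested on simulated data. Groups came from the labels. Of each wider list the text names up to 3 called genes in each direction with the smallest adjusted p, or, where none was called, the 2 with the highest mean CPM. Of each list of cell type markers it names the 2 with the highest mean CPM. Some genes that this rule would name are not reported here. Genes named for being at or under 3 counts were picked once their values were known. The members and lists were chosen with earlier results of these data known. Gene positions are those of GRCm39 (GENCODE vM39). Same-numbered libraries did not deviate together, so the replicate numbers were not taken as pairs.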

Additional observations from a re-analysis of the deposited data

How the results depend on the processing

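Calls over all genes depended on the fit. In KO NO against WT NO, 188 genes were called, against 1015 by DESeq2, 43 with at least 10 counts in every library, 718 from the compared groups alone, 1630 from fragments without KO RA replicate 3 and 40 to 1521 leaving out a library. In KO RA against WT RA the 205 calls became 1315, 80, 16, 1722 and 19 to 1707, and 318 from fragments of all libraries. In WT RA against WT NO the 67 calls became 924, 36, 545, 2037 and 0 to 1868, and 43 with no filter. In KO RA against KO NO the 904 calls became 2632 by DESeq2, 196 from the compared groups alone, 3109 from fragments without KO RA replicate 3, 583 with no filter and 194 to 2776 leaving out a library. The interaction gave 0, against 309 by DESeq2, 2 from fragments, 302 from fragments without KO RA replicate 3 and 0 to 232 leaving out a library. The cause was not tested.

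Members called in KO NO against WT NO were 0, with 1 by DESeq2, 1 from fragments with or without KO RA replicate 3, and 0 to 1 leaving out a library. In KO RA against WT RA they were 0, with 1 by DESeq2, 1 from fragments without KO RA replicate 3 and 0 to 1. In WT RA against WT NO they were 0, with 4 by DESeq2, 1 from the compared groups alone, 4 from fragments without KO RA replicate 3 and 0 to 4. In KO RA against KO NO they were 2, with 0 from the compared groups alone and 0 to 3.

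With the replicate number as a block, 56, 59, 10 and 467 genes were called in the 4 comparisons in this order. Map2 but not Tubb3 (edgeR adjusted p = 0.0563) was then called in KO RA against KO NO, 1 member in place of 2, and Map2 in KO NO against WT NO was 0.044 in place of -0.061. The block changed no other member's call.

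From fragments without KO RA replicate 3, the log2 difference of KO RA from WT RA turned to 0.30 for Dcx and -0.54 for Stmn2, and the interaction to -0.30 for Stmn2, 0.26 for Gad1 and 0.012 for Gad2. Leaving out a library, KO NO against WT NO crossed 0 for Map2 (-0.25 to 0.33), Rbfox3 (-1.03 to 0.48), Gad1 (-0.33 to 6.37), Gad2 (-0.037 to 1.97) and Slc32a1 (-1.03 to 1.77). KO RA against WT RA crossed 0 for Dcx (-0.45 to 0.35), Stmn2 (-0.50 to 0.40), Rbfox3 (-0.23 to 0.80), Gad1 (-0.31 to 0.60) and Gad2 (-0.072 to 0.62). KO RA against KO NO crossed 0 for Mapt (-0.59 to 0.84) and Slc32a1 (-0.11 to 0.93), and the interaction for Stmn2 (-0.28 to 0.63), Rbfox3 (-0.077 to 1.43), Gad1 (-6.22 to 0.47) and Gad2 (-1.77 to 0.24). Without TMM, KO NO read 19.2 CPM for Tubb3, 4.64 for Dcx and 0.434 for Slc32a1. Of 349 alternative fits of a member's log2 fold change beside those that left out a single library, 324 kept direction and side of the threshold. Depth limits the transmitter genes, which held 0 to 206 estimated fragments in a library.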
